A study of Arabidopsis thaliana with 24 samples.

Results

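Mitochondria and plastids of plant cells each keep a small genome of their own, and the genes on these genomes are the subject here. They were taken as all rows of the count table whose identifier starts with ATMG (mitochondrial) or ATCG (plastid) and whose counts add up to at least 60 over the 12 libraries. This left 35 of 152 mitochondrial rows and 82 of 133 plastid rows, that is 117 of the 33296 named rows of the table. The choice used total abundance and no difference between groups.

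The libraries came from tips of the primary root of Arabidopsis thaliana seedlings, 6 days old. The 4 groups were brl3-2 with zeocin, brl3-2 mock, WT with zeocin and WT mock, with 3 libraries each, which the design text calls biological replicates; each was sequenced in 2 runs. The line brl3-2 (SALK_006024C, a T-DNA insertion line) is a mutant of BRL3, a brassinosteroid receptor gene, and WT is the Columbia-0 accession. Mock seedlings stood for 2 h in liquid medium with DMSO, and treated seedlings in medium with zeocin, a glycopeptide drug related to bleomycin that breaks DNA strands. The labels give 10 µM zeocin in one place and 2 µM in another, so no dose is attached to the values.

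The mitochondrial genome of plants encodes a few subunits of the respiratory chain and ATP synthase, some ribosomal proteins, and ribosomal and transfer RNAs. The plastid genome encodes core photosystem proteins, the large subunit of Rubisco, subunits of ATP synthase and of a plastid RNA polymerase, and part of the plastid ribosome. In roots the plastids are mostly non-green, and the photosynthesis genes in the nucleus are largely silent. Unlike nuclear mRNA, organelle RNA carries no long stable poly(A) tail, and in organelles such tails mark RNA for decay. The libraries were made with a kit for mRNA (TruSeq Stranded mRNA), so the organelle counts are the part of organelle RNA that such a library takes in. In a bulk sample, fewer cells, fewer organelles and less RNA per organelle cannot be told apart.

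Totals were 32668516 to 38276389 counts in 10 libraries, and 73481046 and 70212858 in the WT zeocin and WT mock libraries numbered 3. Mitochondrial rows took 0.389 to 0.630% of a library's counts and plastid rows 0.0679 to 0.116%, with 95% Wilson intervals of at most ± 0.00262 and ± 0.00108 percentage points, which cover counting error only. BRL3 itself (AT3G13380) stood at 0.697 to 1.26 CPM (counts scaled to library size, with TMM factors) in the 6 brl3-2 libraries and at 9.55 to 31.7 CPM in the 6 WT libraries. Of the 9 root tip marker genes checked, all were detected in every library. Among the 14 nuclear photosynthesis genes that mark shoot tissue, the summed level was 61.5 to 130 CPM in 11 libraries and 389.7 CPM in brl3-2 mock replicate 2, where each of the 14 was at its highest. The margin differed widely between the genes. RBCS3B, a small subunit gene of Rubisco, had 9.61 CPM there and at most 0.0622 CPM elsewhere. PSAD1 had 16.5 CPM there and up to 15.5 CPM elsewhere, and RCA 27.0 and up to 19.9 CPM. LHCB1.3 alone gave 124 CPM of the sum in that library.

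Much of the plant mitochondrial genome also lies in the nucleus, in a large insertion near the centromere of chromosome 2, and the plastid genome holds a long inverted repeat. In the TAIR10.1 assembly of RefSeq, 70.6% of all 50-base stretches of the mitochondrial genome (367808 bases) also occur in a nuclear chromosome, 8.66% occur more than once within it, and 29.1% are found nowhere else. For the plastid genome (154478 bases) these shares are 2.43%, 34.0% and 64.7%. Of the 33 mitochondrial protein genes RefSeq lists, 15 have no 50-base stretch of their own, and of the 85 plastid ones 10 have none. How the deposited counts treat reads that fit several places is not stated in these sources.

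The sequences below are shown because they mark members that share sequence with a copy. They were read from TAIR10.1 by locus or gene name, while the authors' build was TAIR10. The annotation ties ATMG00990 (NADH dehydrogenase 3, a subunit of respiratory complex I) to the nuclear locus AT2G07751, and ATMG00980 (ribosomal protein S12 of the mitochondrial ribosome) to AT2G07675. The whole of AT2G07751 (chr2:3270008-3270364, plus strand, 357 bases) occurs letter for letter in the mitochondrial genome at bases 288044 to 288400, where RefSeq has nad3. The whole of AT2G07675 (chr2:3270410-3270787, plus strand, 378 bases) occurs there at bases 288446 to 288823, as rps12. The first 120 bases of each, the same in the nucleus and in the mitochondrion, are given 5′ to 3′.
Nuclear AT2G07751 and mitochondrial nad3: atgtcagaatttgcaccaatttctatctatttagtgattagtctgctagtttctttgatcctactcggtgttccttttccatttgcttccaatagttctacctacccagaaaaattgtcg
Nuclear AT2G07675 and mitochondrial rps12: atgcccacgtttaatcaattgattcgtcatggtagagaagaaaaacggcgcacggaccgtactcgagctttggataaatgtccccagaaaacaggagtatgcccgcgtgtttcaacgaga

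A nuclear copy can also differ from its source. ATMG00560, annotated as an OB-fold nucleic acid-binding protein, is tied to AT2G07715, and a stretch of 120 bases of that locus (chr2:3411607-3411726, plus strand) matches the mitochondrial genome at bases 222064 to 222183, minus strand, inside the RefSeq gene rpl2, with 2 differences. Capitals mark them. Counted from the 5′ end, and with the nuclear base first, they are T93C and T94C.
Nuclear AT2G07715: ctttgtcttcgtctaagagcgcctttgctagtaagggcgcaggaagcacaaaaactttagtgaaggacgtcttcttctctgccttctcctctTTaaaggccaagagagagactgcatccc
Mitochondrial rpl2: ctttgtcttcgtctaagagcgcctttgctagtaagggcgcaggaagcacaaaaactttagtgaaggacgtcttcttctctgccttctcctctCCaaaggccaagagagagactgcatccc

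In the plastid genome the copies lie in the inverted repeat. The annotation calls ATCG01310 ribosomal protein L2, and RefSeq has rpl2 at bases 84337 to 85843 (minus strand) and at bases 152806 to 154312 (plus strand), with the same 1507 bases in both. Its first 120 bases are given 5′ to 3′.
Plastid rpl2, both copies: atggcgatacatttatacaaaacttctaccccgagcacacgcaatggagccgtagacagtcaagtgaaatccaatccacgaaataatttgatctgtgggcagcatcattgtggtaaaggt

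The mitochondrial counts were concentrated in a few rows. Over the 12 libraries the mitochondrial rows held 2410891 counts, of which 67.8% fell in ATMG01390 and 94.1% in ATMG01390 and ATMG00020 together. The 6 most abundant rows, which also include ATMG00030, ATMG00090, ATMG00640 and ATMG00160, held 98.5%, and 63 rows had no count at all. The reference used here does not pair these 6 identifiers with gene names or lengths, so the counts are not corrected for length and do not rank the genes by transcript number. The ratio of ATMG01390 to ATMG00020 stayed between 2.17 (WT mock replicate 3) and 3.22 (brl3-2 mock replicate 2) in all 12 libraries. The 2 rows just above the limit of 60 were ATMG00110 with 98 counts and ATMG01090 with 102, and the 2 just below were ATMG00630 and ATMG00200 with 44 each.

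Plastid counts were fewer and less concentrated. They came to 410563, with 28.1% in ATCG00790, 44.9% in ATCG00790 and ATCG01130, and 70.0% in these and ATCG00480, ATCG00780, ATCG00800 and ATCG00470. The 9 rows with consecutive numbers ATCG00740 to ATCG00820 held 52.5% of plastid counts, and 50.3 to 55.9% in single libraries. The 4 rows ATCG01100 to ATCG01130 held 19.5%. Just above the limit stood ATCG00070 with 63 counts and ATCG01230 with 71, and just below it ATCG00710 with 57 and ATCG00410 with 54. Of the 117 members, 14 mitochondrial and 37 plastid ones averaged under 1 CPM.

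**Figure D1:**
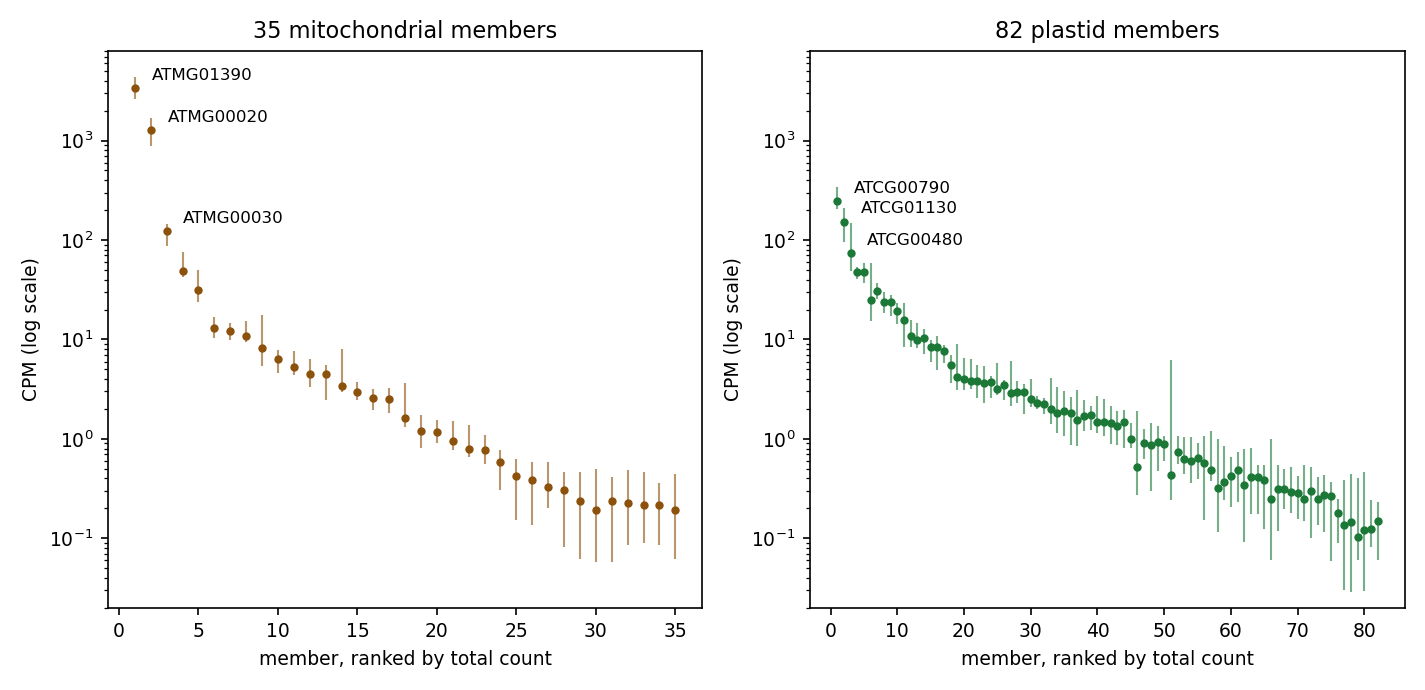
Level of each member in CPM on a log scale, ranked by total count, with mitochondrial members on the left and plastid members on the right; points are medians of the 12 libraries and bars run from the lowest to the highest library. ATMG01390 and ATMG00020 stand far above the other mitochondrial members, while plastid levels fall off gradually.

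The summed level of neither organelle separated zeocin from mock libraries in either genotype. The mitochondrial members added up to 5117, 4165 and 5949 CPM in brl3-2 with zeocin and to 4963, 3935 and 4246 CPM in brl3-2 mock (means 5077 ± 893 and 4381 ± 527, SD, n = 3 each). In WT they added up to 4408, 3857 and 5517 CPM with zeocin and to 5036, 6079 and 5683 CPM in mock (means 4594 ± 845 and 5599 ± 527). The zeocin and mock ranges overlapped in both genotypes. The log2 difference of zeocin over mock was 0.20 in brl3-2 (exact permutation p = 0.3) and −0.30 in WT (p = 0.2), and −0.05 over both genotypes (p = 0.755). The tests were two-sided; with 3 libraries a group they cannot go below 0.1, and permuted within both genotypes or treatments not below 0.005.

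Between genotypes, the mitochondrial sum was lower in brl3-2 in mock, with no overlap of the libraries (brl3-2 3935 to 4963 CPM, WT 5036 to 6079 CPM, log2 difference −0.36). Its p of 0.1 is the smallest the design allows. In brl3-2 with zeocin the difference from WT with zeocin was 0.14 (exact permutation p = 0.5), and over both treatments −0.11 (p = 0.46). Without brl3-2 zeocin replicate 3 the difference from WT with zeocin was 0.02, and leaving out other single libraries gave up to 0.28. Zeocin over mock in brl3-2 was likewise 0.08 without that library and 0.34 without brl3-2 zeocin replicate 2. The 2 mock ranges lay apart also without ATMG01390, at −0.43 (exact permutation p = 0.1). Over the 12 tests of summed levels all Benjamini-Hochberg adjusted p values were 0.6 or more, and the 8 tests of 3 against 3 libraries could not have passed the threshold.

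The plastid members added up to 752, 831 and 1150 CPM in brl3-2 with zeocin, 834, 922 and 983 CPM in brl3-2 mock, 911, 839 and 820 CPM in WT with zeocin, and 897, 745 and 718 CPM in WT mock. The highest value, in brl3-2 zeocin replicate 3, stood apart from its 2 companions. Zeocin over mock gave −0.02 in brl3-2 (exact permutation p = 0.9), 0.13 in WT (p = 0.3) and 0.05 over both (p = 0.665). The brl3-2 libraries were higher than WT by 0.22 in mock (exact permutation p = 0.2), 0.07 with zeocin (p = 0.9) and 0.14 over both treatments (p = 0.22). In each comparison of 2 groups the ranges of their libraries overlapped. Without brl3-2 mock replicate 2, the library highest in shoot markers, zeocin over mock in brl3-2 was −0.02 for the plastid and 0.13 for the mitochondrial sum. For brl3-2 over WT in mock the values were then 0.21 and −0.28.

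The library with the most shoot marker RNA was not the one with the most plastid RNA. In brl3-2 mock replicate 2, with 389.7 CPM of nuclear photosynthesis genes, the plastid sum was 922 CPM, between those of the other brl3-2 mock libraries. The library with the highest plastid sum, brl3-2 zeocin replicate 3, had 66.99 CPM of shoot markers, near the low end. Single plastid members did peak in brl3-2 mock replicate 2, 10 of 82 in all, but this was not particular to it. In brl3-2 mock replicate 3 and in WT mock replicate 1 it was 12 each, and in brl3-2 zeocin replicate 3 it was 28. Among the 10 of brl3-2 mock replicate 2 were ATCG01130 at 211 CPM, against 96.0 to 189 CPM in the others, and ATCG00430 at 6.38 CPM against 3.14 to 5.74 CPM. A note on the nuclear locus AT5G11770 calls ATCG00430 photosystem II reaction center protein G. RefSeq lists no plastid gene of that name (psbG), so the name is uncertain.

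**Figure D2:**
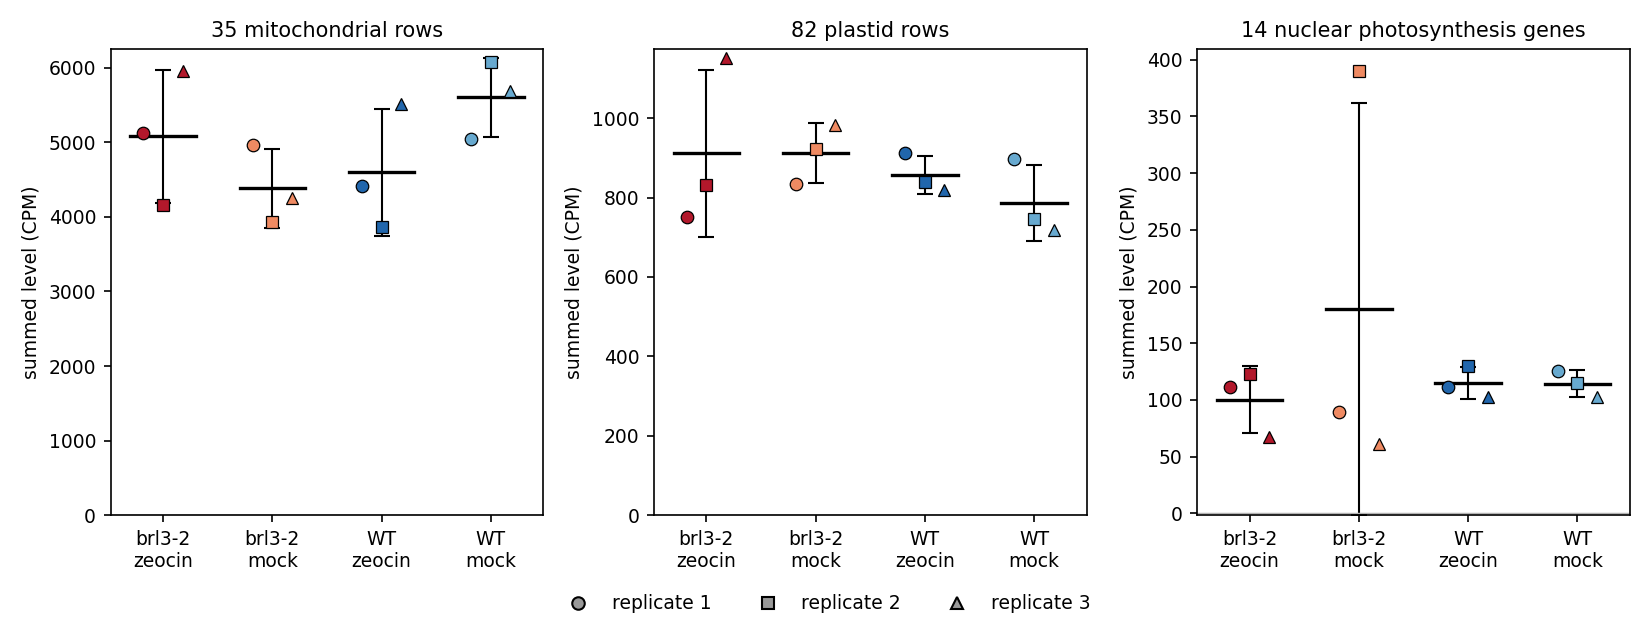
Summed level in CPM of the mitochondrial members, the plastid members and the nuclear photosynthesis genes in each library, by group; symbols give the replicate number, lines the group mean and bars the SD (n = 3). The organelle groups overlap except for mitochondrial sums in mock, where brl3-2 lies below WT, and the high photosynthesis value of brl3-2 mock replicate 2 has no counterpart in the plastid panel.

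The comparison of zeocin with mock asks which transcripts change within 2 h of a DNA-damaging treatment. Of the members, 33 mitochondrial and 75 plastid rows had enough reads for the test across all genes, edgeR's quasi-likelihood test with Benjamini-Hochberg adjustment over 19437 genes. In brl3-2, 0 of the 33 and 0 of the 75 were called at an adjusted p under 0.05, where 5.38% of all genes were called. In WT it was again 0 and 0, where 4.98% of all genes were called. DESeq2 called 0 members in either genotype too. At an unadjusted p under 0.05, edgeR counted 5 mitochondrial and 4 plastid members in brl3-2 (15.2% of all genes tested) and 0 and 4 in WT (13.7% of all genes).

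The members with the smallest p in brl3-2 did not reach the threshold. ATMG00510 stood at 4.67, 5.42 and 6.33 CPM in brl3-2 with zeocin and at 4.21, 3.32 and 4.57 CPM in brl3-2 mock (log2 0.44 ± 0.15 SE, edgeR adjusted p = 0.16). Its WT libraries had 5.33, 4.59 and 4.404 CPM with zeocin and 4.21, 4.24 and 3.83 CPM in mock, so the zeocin libraries lay above the mock libraries in both genotypes. ATMG00665, with at most 0.493 CPM, gave 1.43 ± 0.58 in brl3-2 (edgeR adjusted p = 0.24). Among plastid rows ATCG00640 had 0.916, 0.727 and 1.04 CPM in brl3-2 with zeocin and 0.581, 0.486 and 0.560 CPM in brl3-2 mock (log2 0.72 ± 0.27, edgeR adjusted p = 0.18). ATCG00280 gave −0.47 ± 0.18 (edgeR adjusted p = 0.22), where the 6.44 CPM of brl3-2 mock replicate 2, the library highest in shoot markers, was the highest of all 12. The part of shoot RNA in this result was not tested.

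In WT the 2 smallest p values of the plastid rows belonged to a row under 1 CPM and to one that rests on a single library. ATCG00380 had 0.827, 0.622 and 0.907 CPM in WT with zeocin and 0.459, 0.523 and 0.362 CPM in WT mock (log2 0.84 ± 0.29, edgeR adjusted p = 0.18). ATCG01310 (ribosomal protein L2) gave −2.08 ± 0.83 (edgeR adjusted p = 0.27), and 0.17 (edgeR adjusted p = 0.94) once WT mock replicate 1 was left out. ATCG00780, the fourth most abundant plastid row, followed closely at 0.21 ± 0.08 (edgeR adjusted p = 0.27). For the mitochondrial rows, ATMG00110, a low row, gave 0.96 ± 0.51, and ATMG00030, an abundant one, −0.30 ± 0.16 (edgeR adjusted p = 0.46 and 0.47).

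The intervals say what size of change the data leave room for. In brl3-2 the 95% interval of the zeocin change lay inside ± 1 on the log2 scale, that is within a 2-fold change, for 23 of 33 mitochondrial and 42 of 75 plastid members, and in WT for 24 and 48. Abundant rows differed in this. ATMG01390 gave 0.21 (interval −0.17 to 0.59) in brl3-2 and −0.27 (−0.65 to 0.11) in WT, and ATCG00790 gave 0.09 (−0.24 to 0.41) in brl3-2 and 0.11 (−0.22 to 0.44) in WT. For ATCG00480, the third most abundant plastid row, the interval was much wider, −1.18 to 0.78 in brl3-2 and −0.87 to 1.078 in WT. The median member change was 0.22 in brl3-2 and 0.01 in WT for mitochondrial rows, and −0.01 and 0.04 for plastid rows, where the median of all genes tested was 0.00 in brl3-2 and −0.01 in WT. In brl3-2, 28 of 33 mitochondrial members (84.8%) had a positive estimate, against 49.0% of all genes, and in WT 18 of 33 (54.5%) against 47.9%. The brl3-2 shift leans on 1 library: without brl3-2 zeocin replicate 3, which was the highest of all 12 for 17 of the 35 mitochondrial members, 23 of 33 were positive and the median was 0.05. Members share their libraries, so these counts are a description.

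**Figure D3:**
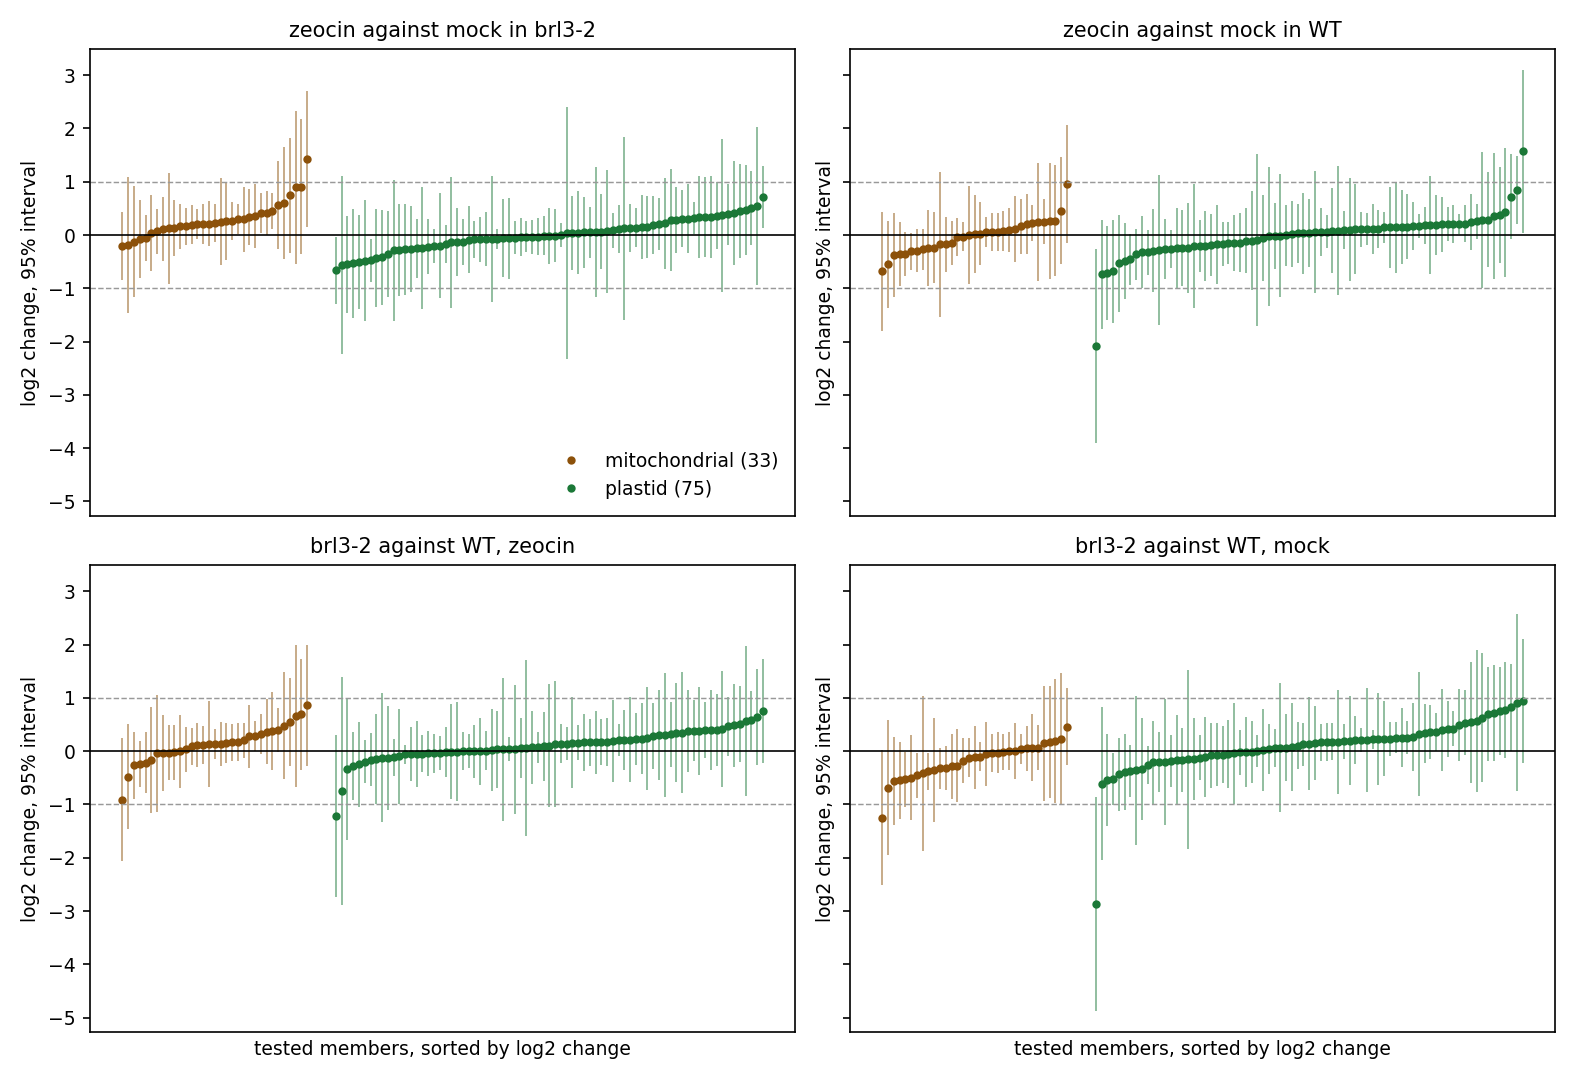
Log2 change of each tested member in 4 comparisons, sorted within organelle, with 95% intervals; dashed lines mark a 2-fold change. Most points lie within the dashed lines, 28 of 33 mitochondrial points are above 0 for zeocin in brl3-2 (23 of 33 without brl3-2 zeocin replicate 3), and the lowest plastid point in both right-hand panels is ATCG01310.

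Groups whose 3 libraries lie wholly to one side were counted as well. For zeocin in brl3-2 this held for 4 mitochondrial members, all higher (12.1%), and for 6 plastid members (8.00%), of which 2 were higher and 4 lower, where it held for 23.6% of all genes tested. For zeocin in WT it held for 3 mitochondrial (9.09%) and 7 plastid members (9.33%), where it held for 16.2% of all genes. ATMG00510 was the only member that lay higher with zeocin in both genotypes.

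Averaged over both genotypes, a contrast added after the others had been seen, zeocin called 10.2% of all genes and 0 of 108 members by edgeR and by DESeq2. At an unadjusted p under 0.05 edgeR counted 1 mitochondrial and 3 plastid members, where it counted 21.7% of all genes. ATMG00510 came nearest, at 0.33 ± 0.11 (edgeR adjusted p = 0.083, higher in 6 of 6 zeocin libraries than in the mock libraries of the same genotype).

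The comparison of brl3-2 with WT asks what loss of the receptor gene does to the same transcripts. No member was called by edgeR or DESeq2, in mock or with zeocin, and very few genes were called at all: 0.0257% of all genes in mock and 0.0412% with zeocin. At an unadjusted p under 0.05, edgeR counted 1 mitochondrial and 1 plastid member with zeocin (2.12% of all genes) and 4 and 6 in mock (3.97% of all genes). In mock, ATMG00020 had 1218, 875 and 1226 CPM in brl3-2 and 1467, 1381 and 1696 CPM in WT (log2 −0.45 ± 0.19, edgeR adjusted p = 1). ATMG00030, the third most abundant mitochondrial row, had 123, 87.4 and 114 CPM in brl3-2 and 141, 136 and 144 CPM in WT (−0.38 ± 0.16, edgeR adjusted p = 1). Both lay below WT in every brl3-2 mock library, as did ATMG00665 and ATMG01360.

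ATCG01110 gave the smallest plastid p after ATCG01310 in mock, with 12.7, 10.6 and 12.2 CPM in brl3-2 and 9.63, 9.68 and 7.18 CPM in WT (log2 0.42 ± 0.15, edgeR adjusted p = 1). With zeocin the order of the groups was not kept, at 9.92, 11.1 and 9.73 CPM in brl3-2 and 12.0, 10.9 and 8.72 CPM in WT. Under zeocin ATCG00450 was at 0.58 ± 0.25 and ATCG00640 at 0.46 ± 0.25 for brl3-2 over WT, and the mitochondrial rows ATMG00160 and ATMG00640 at 0.29 ± 0.13 and 0.40 ± 0.19 (edgeR adjusted p = 1.00 for each). Groups without overlap made up 4 of 33 mitochondrial (12.1%) and 7 of 75 plastid members (9.33%) in mock, against 7.72% of all genes, and 5 (15.2%) and 3 (4%) with zeocin, against 7.52% of all genes. ATMG00990, whose whole sequence has a nuclear copy, was among those higher in brl3-2 with zeocin, at 0.366, 0.394 and 0.389 CPM against 0.306, 0.296 and 0.288 CPM in WT. With the counts of its nuclear relative added, the difference of mean log2 CPM was −0.06, where edgeR gave 0.37 for the row alone. Averaged over both treatments, also a contrast added later, 0.0566% of all genes were called and 0 members by edgeR and DESeq2. For this contrast edgeR counted 0 mitochondrial and 2 plastid members at an unadjusted p under 0.05 (5.24% of all genes). Positive estimates were held by 60 of 75 plastid (80%) and 15 of 33 mitochondrial members (45.5%), against 50.3% of all genes. With zeocin 52 of 75 plastid members were positive, and 25 of 74 without the 4 libraries numbered 3. In mock it was 47 of 75 and 32 of 74. Mitochondrial members were positive in 22 of 33 with zeocin and 11 of 33 in mock. Members share their libraries, so these counts are a description.

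The difference between the zeocin responses of brl3-2 and WT called 0% of genes, members included, by edgeR, and DESeq2 called 0 members. At an unadjusted p under 0.05 edgeR counted 2 mitochondrial and 2 plastid members (0.998% of all genes). ATMG00640 had 28.2, 35.3 and 49.4 CPM in brl3-2 with zeocin against 27.9, 32.8 and 24.0 CPM in brl3-2 mock. In WT it had 30.9, 29.3 and 25.8 CPM with zeocin against 32.3, 41.2 and 31.9 CPM in mock, so that the estimates point in opposite directions (difference 0.71 ± 0.27, edgeR adjusted p = 1). ATMG00665 gave 2.11 ± 0.78, ATCG00780 −0.28 ± 0.12 and ATCG01110 −0.46 ± 0.21 (edgeR adjusted p = 1 for each). For the 2 leading rows the interval of the difference was −0.05 to 1.01 (ATMG01390) and −0.03 to 1.15 (ATMG00020), both of which include a 2-fold difference.

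Organelle rows varied more between libraries of one group than most genes did. The biological coefficient of variation from edgeR had a median of 17.9% over the tested mitochondrial members and 21.2% over the plastid members, against 11.4% over all genes tested. It was above that median for 32 of 33 and 73 of 75. The genes compared were not matched for level, and 14 mitochondrial and 37 plastid members averaged under 1 CPM. The part of low counts in this difference was not tested. The tested members with the lowest mean coefficient of variation of CPM within groups were ATMG00060 (9.54%) and ATMG00160 (10.46%), and ATCG00780 (6.70%) and ATCG00770 (9.13%). Among tested members the highest were ATMG00285 (56.0%) and ATMG00665 (43.4%), both under 0.5 CPM in every library, and ATCG00330 (77.1%) and ATCG00920 (57.3%).

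The brl3-2 zeocin library numbered 3 gave the highest value of the 12 for 17 of 35 mitochondrial and 28 of 82 plastid members. ATMG00090 had 75.8 CPM there, against 42.6 to 51.2 CPM in the other 11. ATCG00670, annotated as the plastid-encoded subunit of the Clp protease, had 9.03 CPM there against 3.12 to 5.84 CPM, and ATCG00660 (ribosomal protein L20) had 6.10 CPM against 2.14 to 4.21 CPM. ATCG00530, named after a chloroplast envelope protein (CemA), ranged from 0.174 to 0.801 CPM, with its highest value in brl3-2 mock replicate 2. WT mock replicate 2 was highest for 6 mitochondrial members, and held 17.8 CPM of ATMG01130 against 5.35 to 13.99 CPM elsewhere.

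Some plastid members were high in the libraries numbered 3 of all 4 groups, a pattern picked out after the values were seen. ATCG00330 had 1.92, 1.52, 1.41 and 1.40 CPM in replicate 3 of brl3-2 zeocin, brl3-2 mock, WT zeocin and WT mock, against 0.275 to 0.633 CPM in the other 8 libraries. ATCG00470 had 58.7, 50.5, 46.8 and 37.2 CPM against 15.2 to 30.1 CPM, and its numeric neighbour ATCG00480 had 133, 147, 128 and 101 CPM against 49.1 to 86.1 CPM. Together ATCG00470 and ATCG00480 made up 7.72 to 21.3% of the plastid counts of a library. ATCG00390 and the mitochondrial ATMG00090 also had all 4 of these libraries above the other 8, which makes 4 of 75 plastid and 1 of 33 mitochondrial members tested (5.33% and 3.03%), and 1.49% of all genes tested. The replicate numbers are not said to mark a shared day or batch, and what the libraries numbered 3 share was not tested. The interval of the zeocin change of ATCG00470 was wide, −1.16 to 1.27 in brl3-2 and −1.12 to 1.29 in WT, while that of ATMG00090 was −0.09 to 0.62 and −0.29 to 0.42.

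ATCG01310 (ribosomal protein L2, the gene with identical copies shown above) stood at 0.305, 0.242 and 0.415 CPM in brl3-2 with zeocin, 0.320, 0.315 and 0.311 CPM in brl3-2 mock, 0.460, 0.444 and 0.691 CPM in WT with zeocin, and 6.16, 0.468 and 0.497 CPM in WT mock. WT mock replicate 1 held 215 of its 409 counts. The brl3-2 change in mock was −2.87 ± 0.91 with this library and −0.61 without it (edgeR adjusted p = 1 and 0.998), and the sign of the zeocin change in WT turned.

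**Figure D4:**
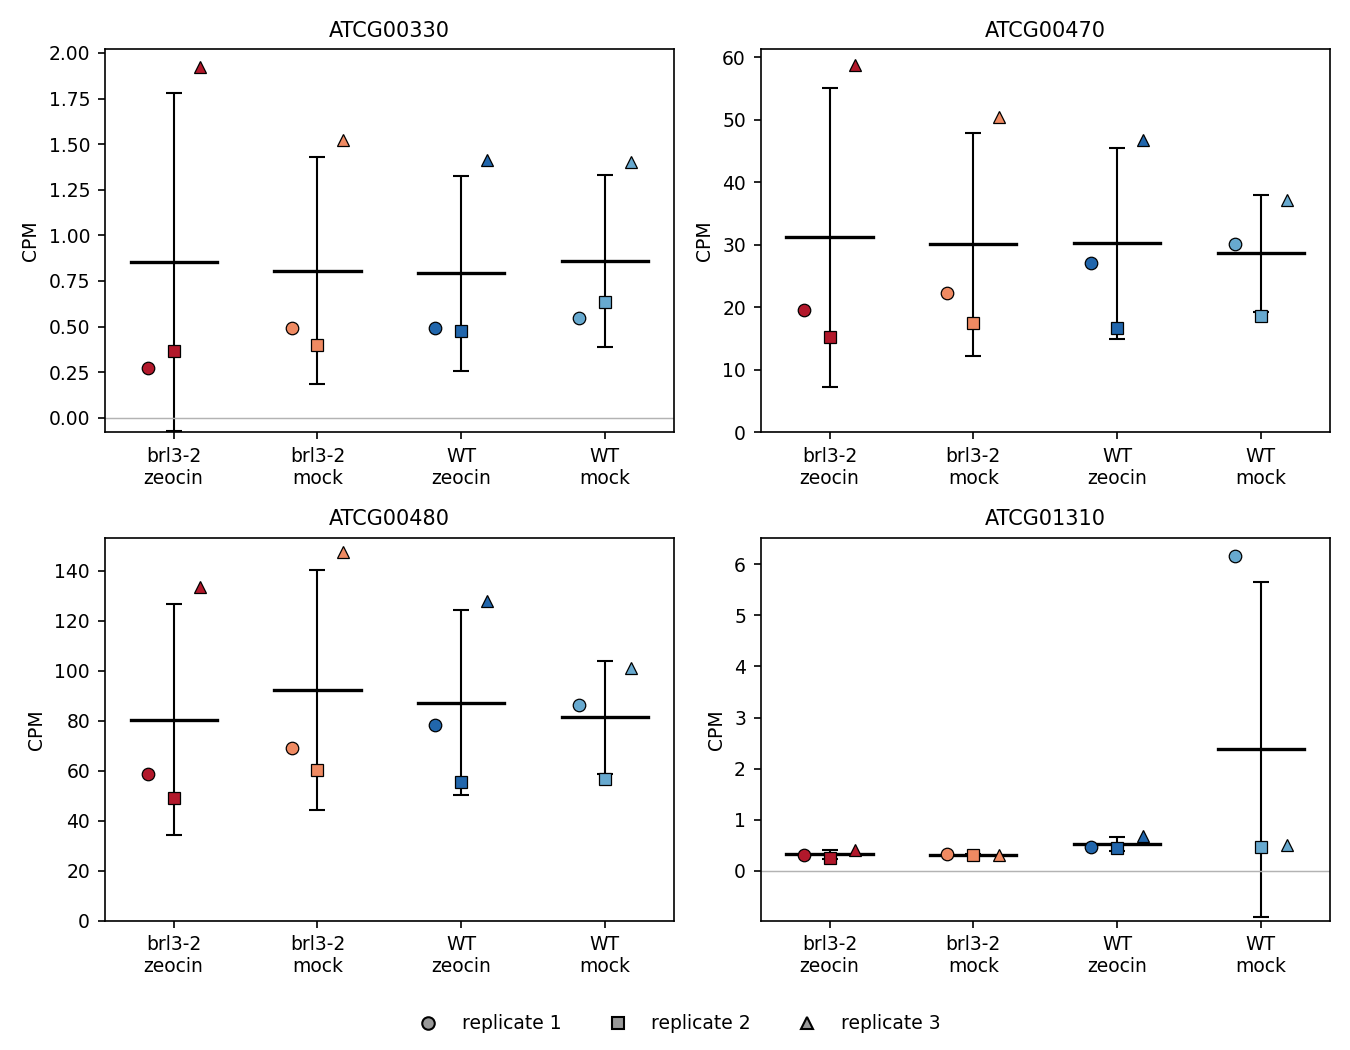
CPM of ATCG00330, ATCG00470, ATCG00480 and ATCG01310 in each library by group, with symbols for the replicate number, lines for the group mean and bars for the SD (n = 3). The triangles (replicate 3) lie on top in every group for the first 3 rows, and ATCG01310 has 1 high library, WT mock replicate 1.

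Mitochondrial rows that the annotation names beside a chromosome 2 locus seldom became members. The annotation names 53 mitochondrial identifiers beside a locus of chromosome 2; 5 of these were members, 22 had no count, and their median total was 1. Of the other 99 identifiers 30 were members, 41 had no count, and the median total was 5. These notes do not sort the rows by sequence. Of the 50-base stretches of the mitochondrial genome 70.6% also occur in a nuclear chromosome, so some of the 99 can have nuclear copies too. Taken by identifier number alone, the 128 nuclear rows from AT2G07600 to AT2G07850 held 34553 counts, and 61 rows had no count. Of these counts 11509 fell in AT2G07680, which the annotation does not name beside a mitochondrial identifier. The total is therefore not that of the inserted copy. Among the loci so named, AT2G07675 had the most counts, 1294. The median of 1 against 5 counts is a description, and what sets it was not tested.

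Counts of the 5 paired members were split with their nuclear relatives in different ways. ATMG00980 (ribosomal protein S12) had 865 counts and AT2G07675 1294, and the mitochondrial row took 32.9 to 52.3% of the pair in single libraries. ATMG00560 had 387 counts against 683 for AT2G07715 (27.3 to 45.1%), and ATMG00990 (NADH dehydrogenase 3) 162 against 200 for AT2G07751 (30.3 to 75.0%). In contrast ATMG01320, NADH dehydrogenase 2B, a further complex I subunit, had 554 counts against 11 for AT2G07689 (93.8 to 100%), and ATMG01090 had 102 against 1 for AT2G07777. A note on AT2G07777 names ATMG01090 as ATP synthase 9. Another note gives ATMG01080 as the ATPase subunit 9, so the name of ATMG01090 is uncertain. In what follows, values for a pair are differences of mean log2 CPM and values for a row are edgeR estimates, so their sizes are not directly comparable. For ATMG00980, adding the nuclear counts gave zeocin differences of 0.20 in brl3-2 and −0.19 in WT, where the mitochondrial row alone gave 0.25 and −0.38. For ATMG00990 the brl3-2 difference in mock was −0.19 for the pair and 0.46 for the mitochondrial row, and with zeocin −0.06 for the pair and 0.37 for the row. In both treatments the row and the pair thus had opposite signs. Counts were low, at 7 to 22 a library for ATMG00990 and 3 to 39 for AT2G07751, and the cause was not tested.

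**Figure D5:**
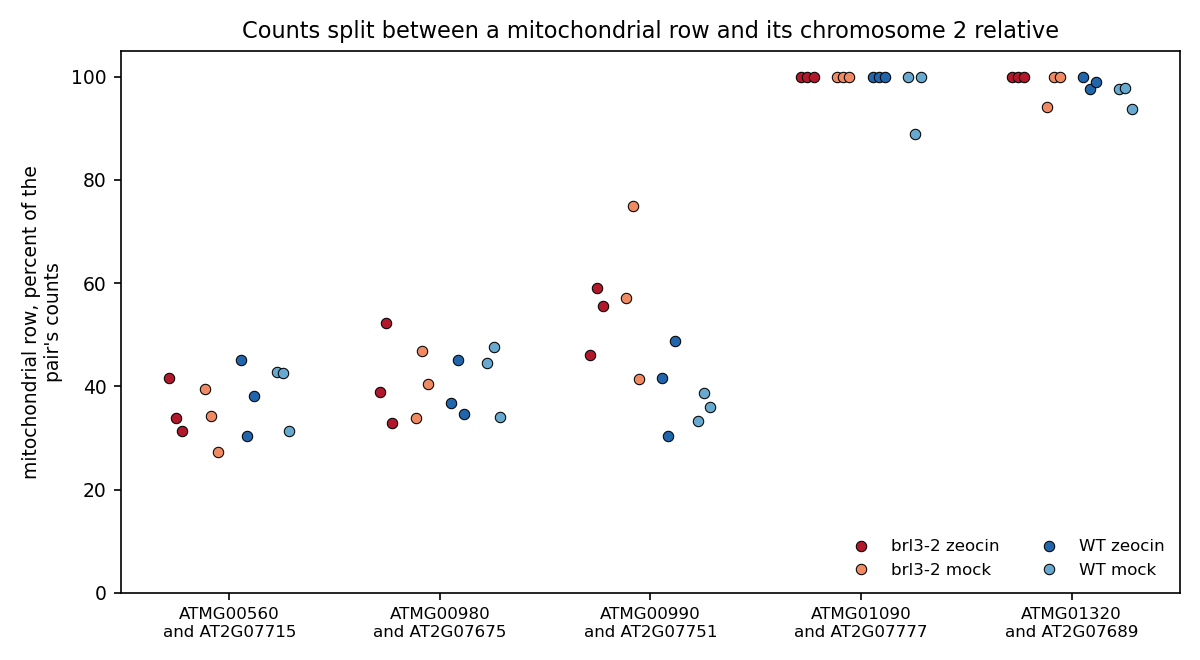
Share of a pair's counts held by the mitochondrial row, in percent, for the 5 members with a relative on chromosome 2; each point is 1 library, coloured by group. The first 3 pairs are split between both rows, with ATMG00990 the widest, and in the last 2 nearly all counts are on the mitochondrial row.

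Nuclear genes that serve the organelles were set beside the members, as lists. Of the 4 mitochondrial stress response genes tested, edgeR called 1 higher with zeocin in each genotype and 0 lower, with 2 at an unadjusted p under 0.05 in each. DESeq2 called 1 in brl3-2 and 2 in WT. The gene edgeR called was BCS1 (AT3G50930), an ATPase gene of the mitochondrial outer membrane known as a marker of mitochondrial stress, with 64.2 to 105.4 CPM in brl3-2 with zeocin against 19.6 to 24.5 CPM in brl3-2 mock (log2 2.03 ± 0.24, edgeR adjusted p = 0.00017), and 51.0 to 95.2 CPM in WT with zeocin against 13.9 to 18.8 CPM in WT mock (2.22 ± 0.24, edgeR adjusted p = 8.9e-05). AOX1A, the gene of the alternative oxidase, averaged 195 ± 43.8 CPM in brl3-2 with zeocin and 138 ± 11.01 CPM in brl3-2 mock (0.50 ± 0.19, edgeR adjusted p = 0.21), and 176 ± 33.4 and 113 ± 23.5 CPM in WT (0.64 ± 0.19, edgeR adjusted p = 0.10). DESeq2 gave AOX1A an adjusted p of 0.131 in brl3-2 and called it in WT (adjusted p = 0.0275). The list's summed level was 337 to 479 CPM in brl3-2 with zeocin, 274 to 303 CPM in brl3-2 mock, 327 to 455 CPM in WT with zeocin and 223 to 273 CPM in WT mock. Its median change was 0.31 in brl3-2 and 0.44 in WT.

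Among 7 nuclear respiratory chain genes, 1 rose in each genotype: CYTC-2 (AT4G10040), a cytochrome c gene, by 0.65 ± 0.12 in brl3-2 (edgeR adjusted p = 0.0048) and 0.60 ± 0.12 in WT (edgeR adjusted p = 0.0080). The list's summed level was 2295 ± 83.9 CPM in brl3-2 with zeocin and 2272 ± 31.8 in brl3-2 mock. It was 2356 ± 50.7 in WT with zeocin and 2273 ± 59.1 in WT mock. The zeocin and mock libraries overlapped in brl3-2. In WT they did not, at 2325 to 2414 CPM with zeocin and 2206 to 2318 CPM in mock. Of 10 genes for organelle DNA maintenance, RECA1 (AT1G79050), a plastid recombinase gene, rose in brl3-2 by 0.28 ± 0.07 (edgeR adjusted p = 0.036, and 0.077 in a fit of the compared groups alone). In WT it was at 0.22 ± 0.07 (edgeR adjusted p = 0.11), with 1 gene of the list at an unadjusted p under 0.05. Sigma factors, which direct the plastid RNA polymerase, gave 0 calls by edgeR and DESeq2 among 5 tested, with 1 at an unadjusted p under 0.05 in each genotype. Their median changes were 0.16 in brl3-2 and 0.14 in WT. Their summed level did not overlap between zeocin and mock in either genotype. It was 90.2 to 94.8 CPM with zeocin and 77.9 to 87.0 CPM in mock in brl3-2, and 89.9 to 98.6 and 82.9 to 89.6 CPM in WT. These sums were not tested. The 2 genes of organelle RNA decay gave 0 calls by both tools and 0 at an unadjusted p under 0.05. None of these lists had a call in brl3-2 against WT by edgeR or DESeq2, nor a gene at an unadjusted p under 0.05.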

How the data were processed

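Raw read counts per gene were deposited by the authors as 1 table with 12 columns, 1 per library. Trimmomatic 0.38, HISAT2 2.1, featureCounts 1.6.2 and the build TAIR10 are listed in the submitters' processing notes; settings, strand use and the handling of reads with several matches are not stated in these sources. The row without a gene name (at most 0.0039% of a library) was left out. Library totals are given in the report.

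Counts were fitted in R 4.3.3 with edgeR 4.0.16 (filterByExpr, minimum count 10; TMM; quasi-likelihood model with 1 coefficient per group; 19437 genes), and levels are CPM on TMM-scaled totals. The SE is the unshrunk coefficient divided by the square root of F. DESeq2 1.42.0 was an alternative. Tested on simulated counts, with changes of 2-fold or more set in 200 genes above 1 CPM, the fit recovered known changes. The simulation set no smaller changes and none in genes under 1 CPM. Summed levels were compared by exact permutation tests. Every pair of libraries within a group differed beyond counting noise, with a chi-square divided by its degrees of freedom of 7.8 to 98.5.

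The members, gene lists and tests were chosen with earlier results of these data known. Named members were the 6 most abundant of each organelle, up to 5 called per direction (or, with none, the 2 with the smallest p), the 2 rows on each side of the limit, and the 2 most and least variable; others were named after their values were seen. Of 58 list entries 6 were dropped where symbol and TAIR10.1 table disagreed. Identifiers were given names only where notes in the RefSeq annotation do so, which held for 5 mitochondrial and 6 plastid members. 1 plastid member is not reported here by name.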

Additional observations from a re-analysis of the deposited data

How the results depend on the processing

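Over 113 alternative fits and contrasts, 2 gave a call of a member and the others 0 (RLE factors, scaling on nuclear genes only, no filter, DESeq2, only the groups compared, replicate block, single libraries or the libraries numbered 3 left out). Leaving out single libraries gave 0 to 1 mitochondrial calls for zeocin in WT: without WT mock replicate 3, ATMG00070 passed (0.55, edgeR adjusted p = 0.046). Leaving out all 4 libraries numbered 3, chosen after seeing the data, gave 1 plastid call for zeocin in WT, ATCG00780 (0.21, edgeR adjusted p = 0.038). The cause was not tested.

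The main tests did not pair libraries by replicate number. Deviations of same-numbered libraries correlated between −0.212 and 0.589, and not all above 0.1. For number 3 the values were 0.589 between zeocin and mock in WT and 0.399 between the genotypes in mock. They were 0.034 between zeocin and mock in brl3-2 and −0.124 between the genotypes with zeocin. With the replicate block 0 members were called, and the paired differences of the sums over both genotypes or treatments were −0.05 and −0.11 for mitochondrial and 0.05 and 0.14 for plastid members (exact sign permutation p = 0.719, 0.5, 0.406 and 0.312). All 170 alternative values of the sums counted as unchanged, but the rule was loose. A difference of 3 against 3 libraries counted as moved only past the SD between libraries, which leaving out 1 library cannot reach. A difference over both genotypes or treatments counted as moved only if its permutation p crossed 0.05. The count of 170 therefore does not show that the sums are stable. Some small differences changed sign when single libraries were left out. For the plastid sum, zeocin in brl3-2 ranged from −0.20 to 0.10, and brl3-2 against WT with zeocin from −0.11 (without brl3-2 zeocin replicate 3) to 0.19, and zeocin over both genotypes from −0.04 to 0.12. The mitochondrial difference for zeocin over both genotypes ranged from −0.12 to 0.02. The plastid difference between genotypes over both treatments changed sign only with all 4 libraries numbered 3 left out (−0.02). For ATCG01310, zeocin in WT ranged from −2.58 to 0.17 when single libraries were left out, and was 0.17 without WT mock replicate 1. RECA1 lost its call for zeocin in brl3-2 under 7 alternatives, and CYTC-2 in WT under 1, in a fit of the compared groups alone. Members under 1 CPM are limited by depth.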

Other observations

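Of 9 root tip markers tested in brl3-2, edgeR called 1 higher and 1 lower with zeocin, with 3 at an unadjusted p under 0.05, and DESeq2 called 2. Their summed level was 154 to 176 CPM in brl3-2 with zeocin, 145 to 157 CPM in brl3-2 mock, 151 to 154 CPM in WT with zeocin and 138 to 147 CPM in WT mock. GL2, a regulator of epidermal cell fate, rose with zeocin in brl3-2, at 57.5 to 72.4 CPM against 46.0 to 55.6 CPM in mock (log2 0.38 ± 0.10, edgeR adjusted p = 0.049, lost under 8 alternatives). WOX5, a homeobox gene of the quiescent centre, fell to 0.300 ± 0.058 CPM in brl3-2 with zeocin, against 0.771 ± 0.202 CPM in brl3-2 mock (log2 −1.36 ± 0.36, edgeR adjusted p = 0.048, lost under 7 alternatives). Of 9 markers tested in WT, 0 were called by edgeR, with 2 at an unadjusted p under 0.05, and 1 by DESeq2.

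Among the shoot photosynthesis genes 11 of 14 were tested and 0 were called by edgeR or DESeq2 in the 4 comparisons. At an unadjusted p under 0.05 edgeR counted 3 for zeocin in brl3-2 and 4 for brl3-2 against WT in mock, both of which include brl3-2 mock replicate 2. LHCB1.3, a light-harvesting protein gene, had 124 CPM in that library and at most 12.4 CPM in the others.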
